A study of Mus musculus with 15 samples.

Results

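The small leucine-rich proteoglycans measured here are osteoglycin (Ogn), osteomodulin (Omd), decorin (Dcn), biglycan (Bgn), lumican (Lum) and fibromodulin (Fmod). They were taken by name: every probe set whose only gene symbol in the platform annotation is 1 of these 6 genes. That gave 9 probe sets for 6 genes, out of 12422 probe sets and 8251 named genes on the array that are not controls. Ogn, Bgn and Fmod have 2 probe sets each. A filter on low signal left 8 of the 9, among 7453 tested probe sets in all.

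The proteins of this family are secreted, and most carry glycosaminoglycan or sulphated sugar chains on a core built of leucine-rich repeats. Several of them bind collagen and shape the width and spacing of its fibrils, and decorin and biglycan also bind transforming growth factor beta. In bone, decorin and biglycan are long-known matrix proteins, and osteomodulin is a keratan sulphate proteoglycan that was named for its presence in mineralised matrix.

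RNA came from MC3T3 cells of clone 1b, a line from mouse calvaria that is a model of the osteoblast precursor. The data are 15 single-colour arrays in 5 groups of 3. At day 0 cells were in control medium. The GP groups had beta-glycerol phosphate for 1 or 3 days, and the groups called treated here had beta-glycerol phosphate, ascorbic acid (AA) and BMP-2, a bone-inducing growth factor, for 1 or 3 days. All groups thus come from 1 clone, AA and BMP-2 were always added together, and the change of medium goes with the passage from day 0 to day 1. Each array carries a prep number, 1 to 3, in every group. The labels do not state that preps are independent cultures. A p-value here therefore reflects only how these arrays vary, and part of that may be technical. Values are linear intensities, differences are on the log2 scale with the standard error (SE) from the fit, and a difference is said to pass at an adjusted p under 0.05. The level of a probe set is not compared with that of another.

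Across the series, the trimmed mean intensity was 150 on every array, and the number of arrays limits the precision. The arrays of prep 3 had 11.7% to 13.9% of their values at the floor, against 6.97% to 9.72% in preps 1 and 2. On the GP day 3 array of prep 3 the actin 3' to 5' signal ratio, a sign of RNA quality, was 2.11, and it was 1.00 to 1.34 on the others. Every fold of treated over GP cultures at day 3 in prep 3 given below, for Dcn, Fmod, Omd and Lum, rests on that array. Of 10 osteoblast markers on the array, 6 were above the signal filter (Col1a1, Col1a2, Dlx5, Cdh11, Tnfrsf11b and Alpl), while Ibsp, Dmp1, Phex and Pth1r were not. Above it were also 5 of 10 skeletal muscle markers, 3 of 9 of macrophages and osteoclasts, 2 of 8 of adipocytes and 1 each of chondrocytes, endothelium and epithelium, and 5 of 6 of fibroblasts and tendon. Among these the muscle regulators Myod1 and Myog averaged 55.6 and 40.8 in preps 1 and 2, the macrophage gene Cd14 718, the adipocyte genes Lep and Cebpa 176 and 159 and the cartilage collagen Col9a1 102. Of other defining genes Ptprc averaged 3.79, Adipoq 8.70 and Acan 6.98. In these bulk samples, fewer cells that make a transcript and less of it per cell cannot be told apart.

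Osteoglycin was the member that went down. It is a keratan sulphate proteoglycan first described as an osteoinductive factor from bone. Its probe set 160877_at gave 1765.8, 2910.3 and 2916.2 at GP day 1 in preps 1, 2 and 3, and 472.4, 787.8 and 1275.2 in the treated cultures of the same preps. Every treated culture lay below every GP culture, at 0.268, 0.271 and 0.437 times the GP level of its own prep. The fitted difference was -1.66 ± 0.35 (SE, n = 3 per group; limma, adjusted p = 0.0433), and with the prep number in the fit it was -1.66 ± 0.28 (limma, adjusted p = 0.00406).

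The other Ogn probe set, 99549_at, read 892.7, 1304.2 and 1800.3 at GP day 1 and 351.5, 453.0 and 749.4 in the treated cultures. Here too the groups did not overlap. Its difference of -1.38 ± 0.35 missed the threshold without the prep number (limma, adjusted p = 0.0945) and passed with it, at ± 0.29 (limma, adjusted p = 0.015). Over all tested probe sets, 8.63% were lower in treated cultures at day 1 with no overlap between the groups. The pair of Ogn probe sets followed each other closely across the 15 arrays, with r = 0.97 both for the values and for the deviations from each prep's mean.

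At day 3 osteoglycin was again lower in the treated cultures. For 160877_at the GP cultures gave 3409.7, 3962.5 and 3929.7 and the treated cultures 2373.5, 1671.2 and 1644.4. For 99549_at the values were 1930.3, 2000.7 and 1875.8 against 1058.8, 1031.6 and 743.2. Neither probe set's groups overlapped, as in 9.58% of all tested probe sets in this direction, and each was lower within all 3 preps, as were 22% of all. The differences were -1.01 ± 0.35 and -1.05 ± 0.35, which did not pass (limma, adjusted p = 0.134 and 0.119). Fitted with the prep number they were -1.01 ± 0.28 and -1.05 ± 0.29 and both passed (limma, adjusted p = 0.0274 and 0.026).

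Within treated cultures Ogn was compared between days 1 and 3. Probe set 160877_at was 1.26 ± 0.28 higher at day 3 than at day 1 with the prep number in the fit (limma, adjusted p = 0.0227; without it ± 0.35 and adjusted p = 0.212). The rise was 5.02-fold in prep 1, 2.12-fold in prep 2 and 1.29-fold in prep 3. The other probe set, 99549_at, was 0.92 ± 0.29 higher and did not pass (limma with the prep number, adjusted p = 0.105), with 3.01-fold, 2.28-fold and 0.992-fold within the preps. In GP cultures 160877_at was 0.61 ± 0.28 higher at day 3 than at day 1, which did not pass (limma with the prep number, adjusted p = 0.359). At day 0, in control medium, it read 2250.9, 3280.1 and 5478.7, and 99549_at read 976.7, 1332.6 and 2713.6, in both cases highest in prep 3. GP day 1 and day 0 overlapped for both probe sets.

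Fibromodulin moved the other way, with the largest fitted difference of the members at day 3. It is a keratan sulphate proteoglycan that binds type I collagen. Probe set 99152_at gave 40.9, 135.8 and 2002.4 at day 0 and 49.7, 155.3 and 1935.3 at GP day 1. In treated cultures at day 1 it gave 466.1, 1117.9 and 2512.1. Prep 3 thus started at a level that preps 1 and 2 passed only at day 3 of treatment. Within preps the treated culture was 9.38, 7.20 and 1.30 times the GP culture at day 1.

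By day 3 Fmod stood at 56.8, 307.6 and 2499.8 in GP cultures and at 2008.2, 3619.9 and 4443.2 in treated ones. The groups overlapped, since the GP culture of prep 3 was above the treated culture of prep 1, but within every prep the treated culture was higher, by 35.4, 11.8 and 1.78 times. The difference of 3.18 ± 1.55 did not pass (limma, adjusted p = 0.326). Adding the prep number to the fit gave 3.18 ± 0.69 (95% interval 1.68 to 4.67), which passed (limma, adjusted p = 0.00842).

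At day 1 the Fmod difference of 2.15 ± 0.69 did not pass even with the prep number (limma, adjusted p = 0.0946; without it ± 1.55 and adjusted p = 0.719). When the 5 arrays of prep 3 were left out, a fit chosen after the data were seen, it was 3.04 ± 0.30 (limma with the prep number, adjusted p = 0.00099), and 4.35 ± 0.30 at day 3 (adjusted p = 4.26e-05). A second Fmod probe set, 161373_r_at, stayed between 2.0 and 26.7 on all arrays and was left out of the tests. Its suffix marks a relaxed probe design, and no comparison was made with it.

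**Figure D1:**
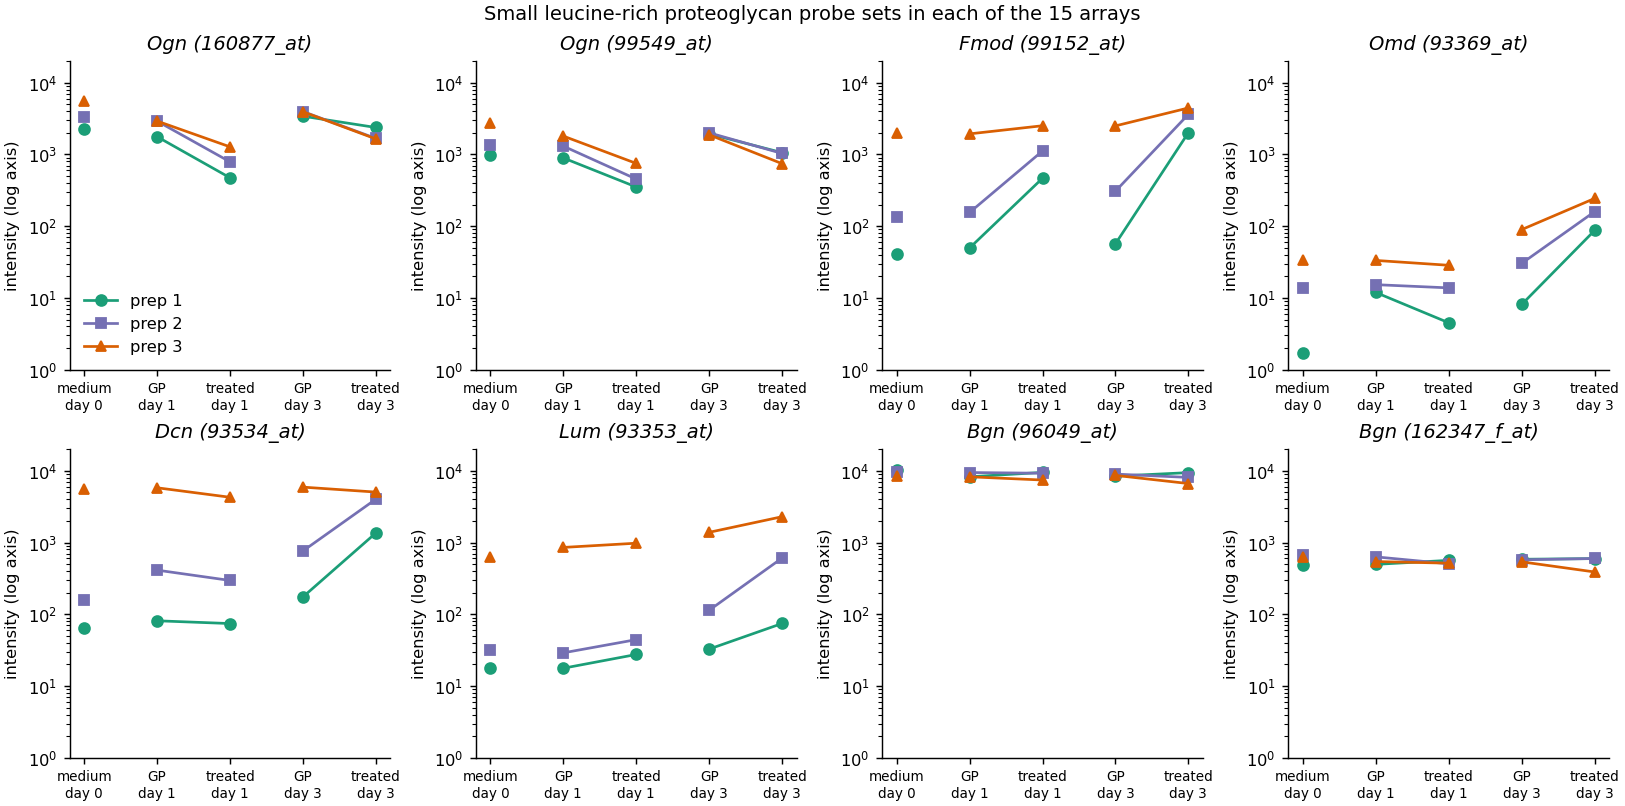
Deposited intensity (log axis) of each of the 8 tested probe sets by group, with a colour and symbol per prep and lines joining the GP and treated cultures of a prep and day. Both Ogn probe sets are lower in every treated culture at both days. Fmod, Dcn and Lum climb from low levels in preps 1 and 2 and start high in prep 3. Omd stays at 33.7 or below before day 3 in every prep, and Bgn is flat.

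Osteomodulin, the member named for its link with mineralised tissue, gave its 2 highest readings in treated cultures at day 3. Its probe set 93369_at read 1.7, 13.8 and 33.7 at day 0, where the value of prep 1 lies under the floor of 2.8. It was 11.9, 15.3 and 33.3 at GP day 1 and 4.5, 13.8 and 28.5 in treated cultures at day 1. At that day the difference was -0.59 ± 0.44 with the prep number and did not pass (limma, adjusted p = 0.53).

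At day 3 Omd read 8.1, 30.3 and 89.6 in GP cultures and 87.2, 159.4 and 243.5 in treated ones. The treated culture was 5.26 and 2.72 times the GP culture in preps 2 and 3. In prep 1 it was also higher, but the GP reading of 8.1 lies under the signal filter and gives no fold. The increase was thus seen in all 3 preps, and the groups overlapped by a single pair of arrays, the GP array of prep 3 and the treated array of prep 1. The difference of 2.42 ± 0.98 did not pass (limma, adjusted p = 0.206), and with the prep number it was 2.42 ± 0.44 (95% interval 1.47 to 3.38) and passed (limma, adjusted p = 0.00319). From day 1 to day 3 of treatment Omd rose by 3.63 ± 0.44 with the prep number in the fit (limma, adjusted p = 0.000979; without it ± 0.98 and adjusted p = 0.192). The rise was 8.54-fold in prep 3. In preps 1 and 2 it started from 4.5 and 13.8, under the signal filter of 22.3, so no fold is given there and the fitted rise rests in part on values near background. The geometric mean of Omd, 25.2, was just over that filter, and only at treated day 3 did all 3 readings exceed it. Omd was thus tested because of the group where it is high, a limit on every Omd test here.

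Omd and Ogn are direct neighbours among the protein-coding genes of chromosome 13 in the RefSeq table, with both starts read on the plus strand and with Aspn and Ecm2, other small leucine-rich genes, next to them. With the prep number in the fit, Omd was thus higher and Ogn lower in treated cultures at day 3. Their prep-centred values had r = 0.07 over 15 arrays. The 250 bases before each RefSeq start (GRCm38.p6) are printed because these neighbours' transcripts went in opposite directions at day 3. At day 1 both were lower in the treated culture of every prep, as were 22% of all tested probe sets, and Omd did not pass. Capitals mark matches on either strand to TATAAA, to CANNTG (an E-box) and to TGTGGT (the Runx core), and sequences run 5′ to 3′ on the plus strand.
Ogn, chr13:49607765-49608014: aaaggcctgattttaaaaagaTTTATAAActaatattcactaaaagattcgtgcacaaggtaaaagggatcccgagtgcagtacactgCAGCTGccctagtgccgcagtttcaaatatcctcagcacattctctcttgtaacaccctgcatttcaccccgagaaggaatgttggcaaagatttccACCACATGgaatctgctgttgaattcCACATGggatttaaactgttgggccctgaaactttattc
Omd, chr13:49582212-49582461: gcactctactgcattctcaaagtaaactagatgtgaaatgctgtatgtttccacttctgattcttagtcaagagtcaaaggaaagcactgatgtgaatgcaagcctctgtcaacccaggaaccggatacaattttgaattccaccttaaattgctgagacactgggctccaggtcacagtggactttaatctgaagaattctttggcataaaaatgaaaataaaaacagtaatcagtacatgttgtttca

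The Ogn stretch held 3 E-box matches and 1 Runx match, which overlaps an E-box at 63 bases before the start, and 2 overlapping TATAAA matches on opposite strands. The Omd stretch held none of these. Of all 32851 promoters in the table, 66.2% held CANNTG in such a stretch, 14.0% held TGTGGT and 12.4% held TATAAA. Also searched were TGANTCA (6.75% of promoters), GGCGCC (9.59%) and GGAATG (12.6%), and of these the Ogn stretch held GGAATG once and the Omd stretch none. The GC content was 42.0% for Ogn and 38.4% for Omd, against a median of 52.4% for all. Promoter entries matched 4 of the 6 genes, Ogn, Omd, Bgn and Fmod. That of Fmod is shown for the member with the largest increase, on chromosome 1 beside Prelp and Optc, again the plus strand; it held 1 CANNTG match, in capitals, none of the other 5 motifs, and 51.2% GC.
Fmod, chr1:134037004-134037253: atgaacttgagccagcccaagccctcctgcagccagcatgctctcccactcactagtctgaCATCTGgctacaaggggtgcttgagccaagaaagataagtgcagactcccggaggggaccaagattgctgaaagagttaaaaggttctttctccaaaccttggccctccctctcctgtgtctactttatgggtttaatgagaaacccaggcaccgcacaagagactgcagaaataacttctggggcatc

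Decorin, a dermatan or chondroitin sulphate proteoglycan that coats collagen fibrils and binds transforming growth factor beta, varied more between preps than between groups. Probe set 93534_at gave 64.9, 160.3 and 5638.1 at day 0 in preps 1, 2 and 3. At day 1 it was 81.1, 412.0 and 5792.6 in GP cultures and 74.2, 295.9 and 4273.0 in treated ones, slightly lower in all 3 preps. At day 3 it was 174.4, 762.6 and 5915.8 with GP and 1358.7, 4020.3 and 5045.7 with treatment. In prep 3 decorin was thus already at its high level at day 0 and was 0.853 times the GP level in the treated culture of day 3, while in preps 1 and 2 the treated cultures reached 7.79 and 5.27 times the GP level at day 3.

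Over all 3 preps the day 3 difference in Dcn was 1.71 ± 1.90 and did not pass (limma, adjusted p = 0.742), nor did it with the prep number, at ± 0.68 (limma, adjusted p = 0.118). In preps 1 and 2 alone, chosen after the data were seen, it was 2.68 ± 0.23 (limma with the prep number, adjusted p = 0.000146). From day 1 to day 3 of treatment Dcn rose by 2.73 ± 0.68 with the prep number (limma, adjusted p = 0.0417; without it ± 1.90 and adjusted p = 0.822), by 18.3-fold, 13.6-fold and 1.18-fold within the preps.

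Lumican, a keratan sulphate proteoglycan of collagen fibrils that lies beside Dcn on chromosome 10, shared with decorin the high level in prep 3. Probe set 93353_at read 17.6, 31.9 and 627.7 at day 0, and 17.7, 29.0 and 854.3 against 27.5, 44.3 and 978.1 in GP and treated cultures at day 1. At day 3 the GP cultures gave 32.7, 113.8 and 1387.7 and the treated ones 74.4, 608.0 and 2289.6. Prep 3 was above preps 1 and 2 in every group, so the groups overlapped at both days, but within each prep the treated culture was higher at both. The folds at day 3 were 2.28, 5.34 and 1.65.

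The day 3 difference in Lum was 1.44 ± 1.92 without the prep number (limma, adjusted p = 0.793) and 1.44 ± 0.42 with it, which passed (limma, adjusted p = 0.0352). From treated day 1 to treated day 3 it rose by 2.15 ± 0.42 with the prep number (limma, adjusted p = 0.0121; without it ± 1.92 and adjusted p = 0.882). Dcn and Lum had r = 0.95 over the 15 arrays, and 0.83 once each prep's mean was taken off. Lum and Omd had 0.80 and 0.83. At day 1 treated cultures had less Dcn and more Lum than GP cultures in all 3 preps. Of all tested probe sets, 22% were lower and 22.4% higher in all 3 preps at that day. Neither gene passed there in limma, without or with the prep number. The next genes along, Kera and Epyc, which encode the family's keratocan and epiphycan, did not exceed 16.2 and 18.6 on any array and were under the signal filter.

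Biglycan, the other class member with chondroitin or dermatan sulphate chains and a known matrix component of bone, differed least between groups and preps. Probe set 96049_at lay between 6636.6 and 10124.4 on all 15 arrays and 162347_f_at between 388.5 and 673.3. The suffix of the second marks probes shared with similar sequences. At day 3 the differences were -0.12 ± 0.14 (95% interval -0.42 to 0.18) and -0.13 ± 0.18 (-0.51 to 0.26), with adjusted p = 0.748 and 0.809 in limma. For 96049_at, the interval with the prep number was -0.34 to 0.09. At day 1 the differences were 0.01 ± 0.14 and -0.07 ± 0.18 and did not pass either (limma, adjusted p = 0.995 and 0.969).

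**Figure D2:**
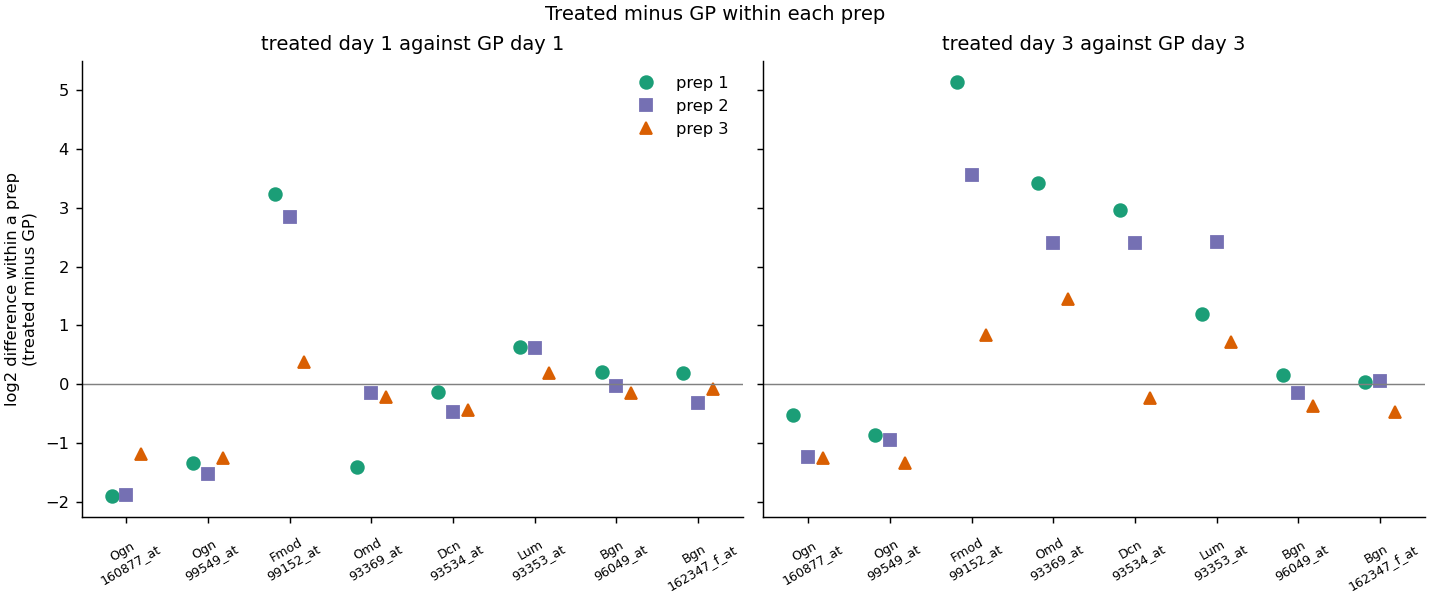
Log2 difference between the treated and the GP culture of each prep at day 1 (left) and day 3 (right) for the 8 tested probe sets, a symbol per prep. Ogn is below 0 in all 3 preps at both days, and for Fmod, Omd, Dcn and Lum at day 3 the point of prep 3 is the lowest. The Omd points of prep 1, and that of prep 2 at day 1, rest on GP readings under the signal filter of 22.3.

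Counted over the 8 tested probe sets, treatment for 1 day gave 0 higher and 1 lower, the Ogn probe set 160877_at, where 0.631% of all tested probe sets were lower. Once the prep number was in the fit 2 were lower, both of Ogn, against 2.92% of all. Without prep 3 as well, these 2 were lower and Fmod was higher, against 2.11% lower and 1.42% higher of all. The median log2 difference of the 8 at day 1 was -0.21, and that of all tested probe sets 0.00.

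At day 3 none of the 8 passed without the prep number, where 4.11% of all did, and 3 had an unadjusted p under 0.05. With the prep number 3 were higher, Fmod, Omd and Lum, and 2 lower, both of Ogn, where 6.84% and 6.99% of all were higher and lower. Without prep 3 as well, 3 were higher, Fmod, Omd and Dcn, and 1 was lower, Ogn 99549_at, against 5.15% and 5.43% of all. Fmod, Omd and Lum were higher within all 3 preps, as were 23.5% of all tested probe sets. The median of the 8 was 0.66 and that of all 0.00.

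From day 1 to day 3 of treatment none of the 8 passed without the prep number (0.148% of all; 3 of the 8 at an unadjusted p under 0.05). With it, 4 were higher, Omd, Lum, Dcn and Ogn 160877_at, against 2.03% of all, and without prep 3 as well 6 were, all but those of Bgn, against 1.81%. This comparison and that of treated against GP cultures at day 3 share the treated cultures of day 3.

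Whether treatment acted differently at day 3 than at day 1 was tested directly by the interaction. Without and with the prep number, 0 of the 8 passed and 0% of all tested probe sets did in limma, with 1 of the 8 at an unadjusted p under 0.05 in each fit, Omd, and 270 and 650 of all. The Omd interaction was 3.01 ± 0.63 with the prep number (limma, adjusted p = 0.104). Its day 3 effect was above its day 1 effect in all 3 preps, as was also the case for Fmod 99152_at, Dcn and Lum. How many of all tested probe sets did so was not counted. In prep 1 the Omd effects rest on readings of 11.9, 4.5 and 8.1, under the signal filter. In preps 1 and 2 alone Dcn passed, at 2.98 ± 0.33 (limma with the prep number, adjusted p = 0.0105), where 0.148% of all were higher. For Ogn 160877_at the interaction was 0.65 ± 0.39 and for 99549_at 0.33 ± 0.40, and neither passed (limma with the prep number, adjusted p = 0.729 and 0.898). The Ogn decrease was smaller at day 3 than at day 1 in preps 1 and 2 and slightly larger in prep 3.

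The GP groups were also compared over time. From day 0 to GP day 1 none of the 8 passed in limma without or with the prep number (0.242% and 0.725% of all), and 0 had an unadjusted p under 0.05 in either fit. From GP day 1 to GP day 3 none passed either (0.711% and 1.85% of all), with 0 and then 2 at an unadjusted p under 0.05. From day 0 to GP day 3 none passed (0% and 0.0134% of all), again with 0 and 2. All 3 preps had more Lum at GP day 3 than at GP day 1, by 3.92 and 1.62 times in preps 2 and 3 and from 17.7 to 32.7 in prep 1, at 1.19 ± 0.42 with the prep number (limma, adjusted p = 0.221). Without prep 3, Ogn 99549_at passed from GP day 1 to day 3 at 0.86 ± 0.15 (limma with the prep number, adjusted p = 0.0185; 0.51% of all were higher), and Dcn from day 0 to GP day 3 at 1.84 ± 0.23 (adjusted p = 0.00695; 0.268% of all).

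**Figure D3:**
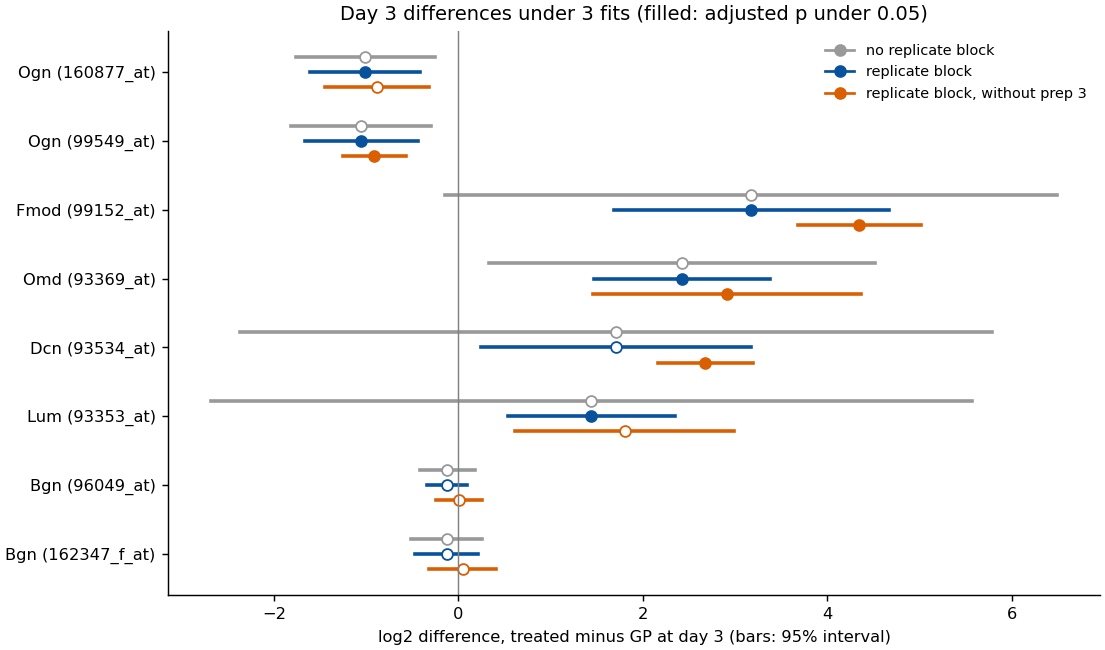
Log2 difference between treated and GP cultures at day 3 with its 95% interval from limma, for the 8 tested probe sets and 3 fits (without the prep number, with it, and with it after leaving out prep 3). Filled points passed at an adjusted p under 0.05. The interval of Fmod narrows from -0.14 to 6.50 without the prep number to 1.68 to 4.67 with it, and Dcn passes only without prep 3.

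How far the passes depended on single arrays was checked by leaving out each array of the groups compared, with the prep number in the fit. Ogn 160877_at at day 1 and Omd at day 3 passed in 6 of 6 such fits, with adjusted p (limma) up to 0.0373 and 0.022. Omd was tested because of the group where it is high, so its passes are not on a par with those of Ogn. Without the prep number, the Ogn 160877_at difference at day 1 passed only when the treated array of prep 3 was the one left out (adjusted p = 0.0214). In that fit the difference missed without the GP array of prep 1, 2 or 3 (0.0637, 0.205 and 0.129) and without the treated array of prep 1 or 2 (0.128 and 0.141). Ogn 99549_at at day 1 was lost without the GP array of prep 2 or 3 or the treated array of prep 1 or 2 (limma, adjusted p = 0.0606 to 0.0782), or all of prep 1 or prep 2 (0.0579 and 0.272). Leaving out all arrays of prep 2, the prep-number fit gave -1.55 for Ogn 160877_at at day 1 (limma, adjusted p = 0.171) and 2.44 for Omd at day 3 (0.0691), and both passed without prep 1 or prep 3.

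Among the day 3 calls with the prep number, Fmod was lost without the GP array of prep 1 (2.69, limma, adjusted p = 0.0514) and kept in the other 5 fits, and it missed without all arrays of prep 1 (2.19, 0.125) or of prep 2 (2.99, 0.131). Lum was lost without any 1 GP array (0.0756 to 0.126) or without the treated array of prep 2, when its difference was 0.71 (adjusted p = 0.0997), and without all of prep 1 or prep 3 (0.145 and 0.059). Ogn 160877_at was lost without the GP array of prep 1 or 2 or the treated array of prep 2 or 3 (0.0972 to 0.135), and without all of prep 2 or prep 3 (0.25 and 0.053). Ogn 99549_at was lost without the GP array of prep 1 or 2 or the treated array of prep 3, at 0.126, 0.0951 and 0.12, and without all of prep 1 or prep 2 (0.0601 and 0.174). Dcn, which had not passed, did so without the treated array of prep 3, at 2.98 (adjusted p = 0.000192).

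For the rise from day 1 to day 3 of treatment, Omd passed in all 6 fits (limma with the prep number, adjusted p up to 0.00917), and missed without all arrays of prep 2 (3.69, 0.0769). The limit set by the signal filter holds for these Omd fits too. Lum was lost without the treated day 1 array of prep 2 (0.0802) or all arrays of prep 1 or prep 2 (0.0771 and 0.0703). Dcn was lost without each of the 6 arrays except the treated day 3 array of prep 3 (0.0633 to 0.171), and without all of prep 1 or prep 2 (0.375 and 0.36). Ogn 160877_at was lost without the treated day 1 or day 3 array of prep 1 or 2 (0.052 to 0.121), or all of prep 1 or prep 2 (0.186 and 0.227).

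The spread between preps was itself a property of 4 members. Averaged over the 5 groups, prep 3 exceeded the mean of preps 1 and 2 by 4.54 in Lum and 4.15 in Dcn (log2), which ranked 1 and 2 among the 7453 tested probe sets. Fmod followed at 3.19 (rank 6) and Omd at 1.83 (rank 31). Ogn was 0.45 and 0.47 higher and Bgn 0.21 and 0.14 lower in prep 3. Preps 1 and 2 also differed in the same 4 genes, with prep 2 above prep 1 by 1.87 in Dcn, 1.58 in Fmod, 1.42 in Lum and 1.41 in Omd. These values are a description of 3 preps, and what set the preps apart was not tested.

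The excess of prep 3 was not the same in all groups. For Dcn it was 5.79 at day 0, 4.99 and 4.02 at GP days 1 and 3, and 1.11 at treated day 3. Fmod had 4.75 at day 0, 4.46 and 4.24 at GP days 1 and 3, 1.80 at treated day 1 and 0.72 at treated day 3. Lum had 3.43 to 5.24. In all 8 tested probe sets the value of prep 3 relative to the others was lowest at treated day 3, where it was 1.05 for Omd, -0.28 and -0.49 for Ogn and -0.39 and -0.62 for Bgn. The margin was small for Bgn 96049_at, with -0.33 at treated day 1. How many of all tested probe sets shared this order was not counted, so it may not be particular to the members.

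**Figure D4:**
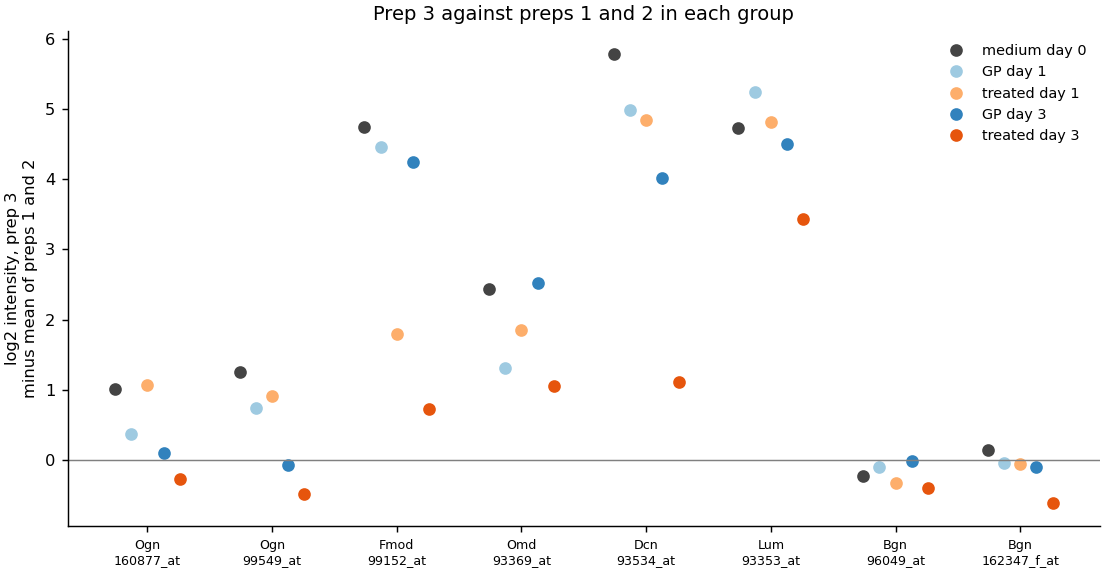
Log2 intensity in prep 3 minus the mean of preps 1 and 2, a point per group, for the 8 tested probe sets. Dcn ranges from 1.11 to 5.79 and Fmod from 0.72 to 4.75, lowest in treated cultures at day 3 as in every probe set shown, while Lum is at 3.43 or above in every group and Bgn lies between -0.62 and 0.15.

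Prep 3 differed in other matrix genes as well, named here after their values were seen. The collagenase Mmp13 averaged 1249 in preps 1 and 2 and 49.9 in prep 3, and the gelatinase Mmp9 143 and 15.1. The cell-surface proteoglycan Sdc4 averaged 119 and 579, and the growth factor Bmp4 85.2 and 343. Of the 10 osteoblast markers, the 6 above the signal filter differed by -0.10 (Cdh11) to 0.35 (Tnfrsf11b) on the mean log2 scale between prep 3 and the other preps, with mean intensities of 120 and 244 for Alpl. Of the 4 under the filter, Pth1r was higher by 1.57 and Dmp1, Ibsp and Phex were at -1.40, -0.87 and -0.85. For Ibsp the mean intensity went the other way, 20.5 in preps 1 and 2 and 35.3 in prep 3. Its highest reading was 168.9, so no direction is read from it. The summed intensity of the 6 fibroblast and tendon markers on the array was 2821.6 to 5539.5 in prep 3, 4418.6 to 6883.7 in prep 1 and 4163.6 to 7622.7 in prep 2. The 8 chondrocyte markers summed to 126.6 to 186.9 in prep 3 and to 147.3 to 246.3 in preps 1 and 2, with 1 of them above the signal filter. The part of other cell types in the prep difference was not tested.

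The same marker lists were set beside the treatment comparison at day 3. The fibroblast and tendon markers summed to 5539.5 to 7622.7 in GP cultures and 2971.8 to 4751.8 in treated ones, so these groups did not overlap. S100a4 weighs most in this sum, averaging 3875 in preps 1 and 2, with Thy1 next at 768. Of all tested probe sets, 9.58% were lower at day 3 with no overlap, a share of single probe sets and not of such sums. Of 5 such genes tested 2 were lower in treated cultures (limma without the prep number), Cd34 and Thy1, and 4 with it, also Pdgfra and S100a4. Of all tested probe sets, 2.08% were lower and 2.03% higher without the prep number, and 6.99% were lower with it. The chondrocyte markers summed to 141.4 to 198.9 and 176.1 to 246.3, and the adipocyte markers to 417.7 to 552.5 and 410.7 to 527.5. Of 6 osteoblast markers tested, 2 were higher, the phosphatase Alpl at 4.58 ± 0.50 (limma, adjusted p = 0.000406) and Tnfrsf11b, and 1 lower, Cdh11. How far a change in the mix of cells entered the members' values was not tested.

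Among other proteoglycan core proteins, 0 of 14 tested genes passed at either day without the prep number in limma. With it, Bsg was lower at day 1, and at day 3 Gpc1, a glypican that holds heparan sulphate chains at the cell surface, was higher by 0.91 ± 0.18 (limma, adjusted p = 0.00484) and Bsg lower. The list's median difference at day 3 was -0.19. For comparison, 2.25% of all tested genes were higher and 2.23% lower at day 3 without the prep number, and 7.30% and 7.53% with it. At day 1, 2.92% of all tested probe sets were lower with it. Chad, the single gene tested of 12 other small leucine-rich proteins, did not pass.

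The enzymes that build glycosaminoglycan chains gave 0 of 21 at either day without the prep number. With it, Ext1, a heparan sulphate polymerase, was higher at day 1, at 0.86 ± 0.19 (limma, adjusted p = 0.0229). At day 3 Papss2, which makes the sulphate donor (0.84 ± 0.20, adjusted p = 0.0134), and Slc35b2, which carries it into the Golgi, were higher and the sulphotransferase Chst2 lower (limma with the prep number). In that fit 2.07% of all tested probe sets were higher at day 1, and 6.84% higher and 6.99% lower at day 3. These few calls are thus not read as a result about the enzymes. The median at day 3 was 0.10. Of the 7 proteases tested that can cut the family, none passed without the prep number. At day 3 Mmp9 was lower with it, as were 6.99% of all tested probe sets.

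Of 15 collagens and fibril partners tested, Col3a1 was higher at day 3, by 1.27 ± 0.24 (limma, adjusted p = 0.0106). With the prep number, 4 were higher, Col3a1, Col6a1, Col5a2 and Col6a2, and Thbs2 was lower, which was also the 1 change at day 1. Of all tested probe sets, 6.84% were higher and 6.99% lower at day 3 in that fit, and 2.92% were lower at day 1. Without prep 3 as well, 8 were higher and 0 lower at day 3, where 5.69% of all tested genes were higher and 5.81% lower. The median at day 3 was 0.34. Type I collagen, the main ligand of the family in bone, did not pass, with Col1a1 at 0.28 ± 0.17 (limma, adjusted p = 0.472).

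Growth factors and receptors that bind the family changed at day 3 in 5 of 13 cases, where 4.11% of all tested probe sets did. Tgfb1, the ligand that decorin and biglycan bind, was 2.36 ± 0.33 higher (limma, adjusted p = 0.00146), and Pdgfa and Ccn2 were also higher, the latter by 3.09 ± 0.64 (adjusted p = 0.0157). Igf1r, a receptor that binds decorin, fell by 0.66 ± 0.15 (adjusted p = 0.0282). Egfr was the other lower gene, named after its values were seen. With the prep number 4 were higher and 3 lower, against 6.84% and 6.99% of all tested probe sets. In the same fit Tgfb3 was higher and Igf1r lower at day 1, where 2.07% of all tested probe sets were higher and 2.92% lower.

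Genes whose pattern was most like a member's were found by Pearson's r of log2 intensity over the 15 arrays, as a description. The arrays share preps, so r over the deviations from each prep's mean is given second. Ogn 160877_at was most like Pltp (0.96, 0.97), Gstm2 (0.95, 0.96) and Dag1 (0.93, 0.95), and Dcn was most like Irx3 (0.98, 0.94), Mest (0.97, 0.91) and Adh1 (0.94, 0.89). Fmod was most like Npnt (0.97, 0.94), Polr2g (0.93, 0.87) and Irx3 (0.92, 0.85). Lum shared Mest (0.95, 0.76) and Irx3 (0.94, 0.84) with Dcn, and had Plekha5 (0.95, 0.77) besides. Omd was most like Col15a1 (0.93, 0.90), Oxct1 (0.92, 0.90) and Suclg2 (0.92, 0.92). Ogn 99549_at again had Pltp (0.94, 0.93) and Gstm2 (0.94, 0.95), then Smim14 (0.91, 0.91). For Bgn 96049_at the closest were Ifitm3 (0.87, 0.76), Chrna7 (0.87, 0.76) and Tpd52l1 (0.86, 0.73). For Bgn 162347_f_at they were Itgb2l (0.79, 0.82), Dgcr6 (0.78, 0.75) and Pigt (0.76, 0.76). Among the members, Fmod and Dcn had 0.87 and 0.73, and Fmod and Ogn 160877_at -0.11 and -0.44.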

How the data were processed

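Total RNA was measured on 15 single-colour arrays, and the groups and prep numbers were taken from the labels. Each deposited value is a linear intensity of a probe set, and the authors had scaled the arrays before deposit, as the equal trimmed means show. The software and scaling method were not given in the sources used here. The members and gene lists were chosen with earlier results of these data known.

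The 66 control probe sets were left out, values under 2.8 (the 10th percentile) were set to it, and log2 intensities were computed from the deposited intensity values. Probe sets with a geometric mean under 22.3 (the 40th percentile) were left out, which left 7453. The mean is over all arrays, so this can also remove genes that are high on only some of them. Pth1r and Ibsp were removed although their highest readings were 419.3 and 168.9. Of the 12422 probe sets, 10833 had 1 gene symbol, 396 had several and 1193 had none, and 10817 symbols matched the RefSeq table of GRCm38.p6 by Entrez ID.

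All arrays entered 1 fit in limma 3.58.1 under R 4.3.3 (lmFit, then eBayes with trend), with 1 coefficient for each group and 10 degrees of freedom left, and Benjamini-Hochberg adjustment over the tested probe sets. The prep number was then added as a block, which left 8. The numbers pair the arrays: deviations from the group means correlated at 0.19 to 0.70 in all 30 pairs of 1 prep and at -0.57 to 0.26 between arrays of different preps and different groups, and 15 of 15 arrays matched their own prep best. The fits without prep 3, and the leave-outs with the block, were added after the data were seen. All members were named, with up to 4 genes per list by smallest p (1 probe set per gene, the one of highest mean signal). The scripts were tested on simulated data, and figures were drawn with matplotlib 3.10.9. Promoters are RefSeq sequences of GRCm38.p6, searched on both strands.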

Additional observations from a re-analysis of the deposited data

How the results depend on the processing

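The replicate block, the pairing by prep number, moved the count of members past the threshold from 1 to 2 for treated against GP cultures at day 1, from 0 to 5 at day 3 and from 0 to 4 for treated day 3 against treated day 1; it changed no count in the other 4 comparisons. The day 1 count fell to 0 with the floor at the 50th percentile, no signal filter, median scaling, only the groups compared, or no mean trend, and was 2 with array weights. The day 3 count was 1 with that floor, 2 with only the groups compared and 1 with array weights, and the count for treated day 3 against day 1 was 1 with array weights. Leaving out an array or a prep, with or without the block, gave 0 to 3, 0 to 5 and 0 to 6 in these 3 comparisons, and 0 to 1 for the interaction, GP day 3 against GP day 1 and GP day 3 against day 0. At day 1, with 1 array or prep left out, Dcn ranged from -1.96 to 1.31, Lum from -1.12 to 2.23, Omd from -1.21 to 0.12, Bgn 96049_at from -0.091 to 0.12 and Bgn 162347_f_at from -0.20 to 0.055. None of these had passed. Under the higher floor the Omd difference at day 1 was 0, as its values there lay at the floor. At day 3 Bgn 96049_at ranged from -0.27 to 0.0084 and Bgn 162347_f_at from -0.27 to 0.081. From treated day 1 to treated day 3 they ranged from -0.24 to 0.0091 and from -0.17 to 0.18, and the latter was 0.076 with array weights. Apart from the settings whose construction gives fewer arrays or genes, the cause of these shifts was not tested. Omd in preps 1 and 2 before day 3 and the second Fmod probe set lie near the floor, so small differences there were not measurable.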
